A study of Homo sapiens with 12 samples.

Results

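The expression of 9 genes of iron uptake, storage, export, sensing and iron-sulfur cluster assembly was followed across 4 treatments of KP4 cells, an established human pancreatic cancer cell line. The genes are TFRC, STEAP3 and SLC11A2 (uptake), FTH1, FTL and NCOA4 (storage and its turnover), SLC40A1 (export), IREB2 (sensing) and ISCU (cluster assembly). They were chosen by name, and all 9 were found once each among the 36601 genes of the deposited table. The cells received DMSO, the vehicle, or 10 mM metformin (Met), an inhibitor of complex I of the mitochondrial electron transport chain, or 5 nM FK866 (FK), an inhibitor of the NAD salvage enzyme NAMPT, or both compounds (Met+FK), in each case for 24 h. RNA depleted of ribosomal RNA was sequenced in 12 libraries, 3 per treatment. The labels number them 1 to 3 and do not say that they came from separate cultures, so the p-values measure the spread between these libraries, which may be technical. All results concern 1 cell line at 1 dose of each compound and at 1 time, and in RNA from many cells a change in every cell and a change in a share of them cannot be told apart.

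The libraries held between 30667735 and 41052203 counted read pairs. Values are normalized counts, that is, read pairs per gene divided by a size factor of the library. The epithelial keratins KRT18 (9398 to 18720 normalized counts) and KRT8 (2217 to 3222) were abundant, whereas the ductal and epithelial markers KRT19 (14.6 to 75.0), CDH1 (24.2 to 86.5) and EPCAM (3.78 to 12.5) were low in every library. The sum of the 6 ductal markers lay between 21390 and 22300 in the DMSO libraries, between 12200 and 14800 in the Met libraries, between 14170 and 18450 in the FK libraries and between 12220 and 15250 in the Met+FK libraries. ALAS2, which defines red cell precursors, was at 0 in all 12 libraries, and the 5 erythroid markers together did not exceed 2.31 normalized counts. The acinar markers together did not exceed 1.65 and the endocrine ones 2.30. Of the leukocyte and macrophage markers, CD68 stood at 720.9 to 1010 and PTPRC at 101.4 to 304.3, whereas CD163 did not exceed 3.14. Of the fibroblast markers, COL1A1 stood at 51.97 to 307.0, whereas DCN was at 0 in every library and LUM did not exceed 0.985. The sum of the endothelial markers lay between 21.95 and 56.27. The part of these markers in the results below was not tested.

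Cells take up iron mainly as transferrin bound to the transferrin receptor, encoded by TFRC. In the endosome the reductase STEAP3 converts the iron, and the transporter DMT1, encoded by SLC11A2, carries it into the cytosol. Iron that is not used is stored in ferritin, a shell made of heavy (FTH1) and light (FTL) chains, and NCOA4 delivers ferritin to lysosomes to release it again. Ferroportin (SLC40A1) is the known cellular iron exporter. The iron regulatory proteins, one of them encoded by IREB2, bind hairpins called iron-responsive elements (IREs) in messenger RNAs when iron is scarce. Binding in the 5′ UTR blocks translation, as in the ferritin messengers, and binding in the 3′ UTR protects the messenger from decay, as in TFRC. ISCU is the scaffold protein on which mitochondria build iron-sulfur clusters, the cofactors of complex I, of complex II and of cytosolic aconitase.

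The hairpins are shown here because they place 4 of the messengers on the 2 sides of this regulation. The UTRs of GENCODE 44 transcripts were searched on the transcript strand for CNNNNNCAGTGN, an unpaired C, a stem arm of 5 bases and the 6-base loop, with the bases of the 3′ arm able to pair (G with U allowed). The pattern was present in the UTRs of 4 of the 9 genes and of 106 of 12798 canonical messengers of the genes tested (0.828%). The windows below have 30 bases each, in the sense direction on hg38, with the loop in capitals.
SLC40A1, 5′ UTR, chr2:189580660-189580689, minus strand: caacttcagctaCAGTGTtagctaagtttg
FTH1, 5′ UTR, chr11:61967573-61967602, minus strand: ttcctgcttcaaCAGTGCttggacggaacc
FTL, 5′ UTR, chr19:48965335-48965364, plus strand: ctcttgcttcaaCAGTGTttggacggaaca
TFRC, 3′ UTR, chr3:196050978-196051007, minus strand: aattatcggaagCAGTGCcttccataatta
TFRC, 3′ UTR, chr3:196050574-196050603, minus strand: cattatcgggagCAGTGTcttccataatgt
TFRC, 3′ UTR, chr3:196050509-196050538, minus strand: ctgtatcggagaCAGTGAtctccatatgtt
TFRC, 3′ UTR, chr3:196050462-196050491, minus strand: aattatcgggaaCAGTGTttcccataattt
The match is a description of these windows. RNA counts do not measure the translation that binding in the 5′ UTR blocks, and the part of these hairpins in the results below was not tested. The pattern asks for 5 unbroken pairs, so a gene without a match, such as SLC11A2, may still hold an IRE. EPAS1 and CDC42BPA, counted below among the messengers with described IREs, had no match either. TFRC held 4 sites, all in its 3′ UTR, and FTH1, FTL and SLC40A1 held 1 site each in the 5′ UTR.

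Levels of different genes were compared per kilobase of the canonical transcript of GENCODE 44. In the DMSO libraries FTH1 had 49037 ± 6465 normalized counts per kb (SD, n = 3) and FTL 21106 ± 1968. STEAP3 (3136 ± 340.4), TFRC (2933 ± 86.7), ISCU (2476 ± 96.2) and NCOA4 (2253 ± 177.1) formed the next level, followed by SLC11A2 (348 ± 15.1) and IREB2 (230 ± 33.2), whereas SLC40A1 had 1.66 ± 0.360. The libraries of STEAP3 and TFRC overlapped in this order, as did those of ISCU and NCOA4, and the other neighbours did not. Over all libraries FTH1 and FTL lay at percentiles 99.9 and 99.4 of the tested genes. In the Met and the Met+FK libraries ISCU followed the ferritin chains, then NCOA4, then TFRC and STEAP3, which overlapped each other. In the FK libraries TFRC came next after the ferritin chains, at 3752 ± 157.8, above STEAP3 with no overlap. Both ferritin chains have processed copies in the genome, 25 annotated pseudogenes of FTH1 and 16 of FTL, none of which is a row of the table. How the authors' counting treated reads shared with such copies is not given in the sources used here, so the ferritin levels are uncertain to that extent.

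**Figure D1:**
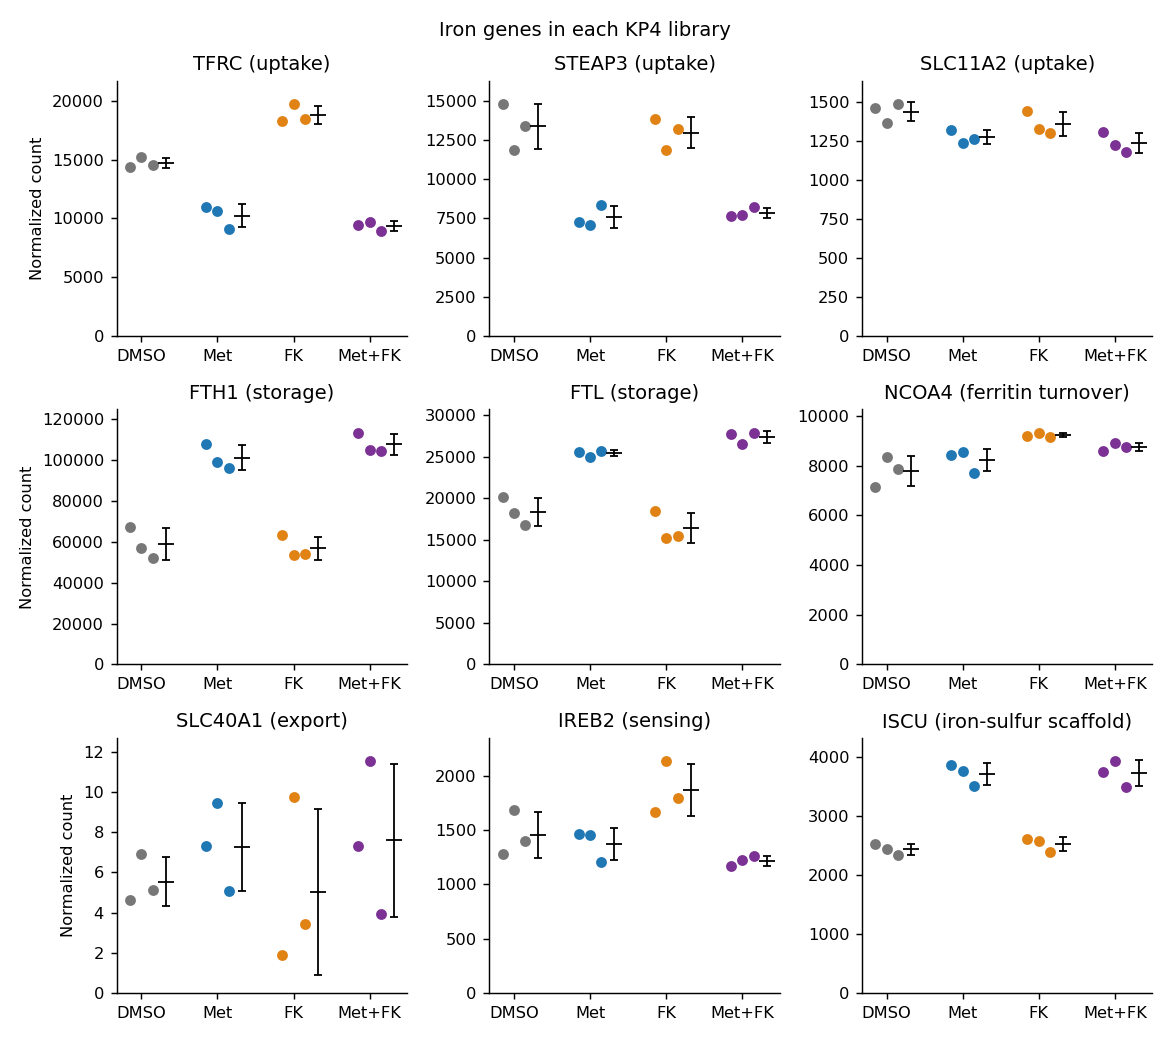
Normalized counts of the 9 genes in each library (points, replicates 1 to 3 from left to right within a treatment) with the mean and SD of 3 libraries (black), each axis starting at 0. FTH1, FTL and ISCU are high, and TFRC and STEAP3 low, in the Met and Met+FK libraries, whereas SLC40A1 stays under 12 normalized counts in every library.

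Metformin lowered the messengers of the transferrin receptor and its endosomal reductase and raised those of both ferritin chains and of ISCU. TFRC (chr3:196027183-196082096, minus strand) had 14352, 15186 and 14557 normalized counts in the DMSO libraries and 10966, 10603 and 9117 in the Met libraries. Every Met library lay below every DMSO library, and the messenger fell by 0.53 ± 0.0741 on the log2 scale (SE, limma-trend, adjusted p = 4.34e-05). STEAP3 (chr2:119223831-119265652, plus strand) had 14776, 11878 and 13418 normalized counts with DMSO and 7258, 7103 and 8380 with metformin. It fell by 0.82 ± 0.0902 (adjusted p = 5.03e-06), to 0.568 times its level in DMSO. SLC11A2 (chr12:50979401-51028566, minus strand) differed less. Its values were 1459, 1366 and 1484 with DMSO and 1321, 1239 and 1261 with metformin, which did not overlap, but the difference of -0.17 did not pass the test (adjusted p = 0.074).

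On the storage side, FTH1 (chr11:61959718-61967634, minus strand) had 67496, 57236 and 52242 normalized counts with DMSO and 107942, 99299 and 96190 with metformin. The groups were far apart, with a rise of 0.78 ± 0.0917 on the log2 scale, or 1.72-fold (adjusted p = 8.40e-06). FTL (chr19:48965309-48966879, plus strand) had 20175, 18216 and 16759 normalized counts with DMSO and 25549, 25034 and 25711 with metformin, a rise of 0.47 ± 0.0815, or 1.39-fold (adjusted p = 2.51e-04). NCOA4 (chr10:46005088-46030714, minus strand), the ferritin cargo receptor, had 7146, 8362 and 7887 normalized counts with DMSO and 8438, 8555 and 7717 with metformin. These ranges overlapped, and the difference of 0.080 did not pass (adjusted p = 0.351).

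ISCU (chr12:108562582-108569384, plus strand) had 2530, 2433 and 2341 normalized counts with DMSO and 3854, 3763 and 3498 with metformin. It rose by 0.61 ± 0.0736, or 1.52-fold (adjusted p = 1.21e-05), with no overlap. IREB2 (chr15:78437431-78501453, plus strand), the iron regulatory protein whose level is set mainly by degradation of the protein when iron is plentiful, ranged from 1279 to 1686 with DMSO and from 1204 to 1458 with metformin. Its difference of -0.077 did not pass (adjusted p = 0.602) and turned to 0.045 when libraries were scaled to the same total. SLC40A1 (chr2:189560579-189583758, minus strand) was close to the limit of detection, with 4.62, 6.90 and 5.12 normalized counts in the DMSO libraries, 7.32, 9.45 and 5.07 in the Met libraries, 1.89, 9.73 and 3.44 in the FK libraries and 7.32, 11.5 and 3.90 in the Met+FK libraries. These stand for 2 to 14 read pairs per library, the ranges overlapped, and with a mean of 6.36 the gene was below the minimum mean of 10 for the test, so that 8 of the 9 genes were tested.

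For metformin against DMSO, 3 of the 8 genes were thus higher at an adjusted p under 0.05, set beside 24.9% of all 15376 genes tested, and 2 were lower, set beside 25.9%. With the fold change over 1.5 that the study also required, STEAP3, FTH1 and ISCU were left, 3 of 8 beside 23.0% of all genes. The Met and DMSO ranges did not overlap for 6 of the 8 genes, beside 56.9% of all genes. The median log2 change was 0.0016 over the 8 genes and 0.0125 over all genes, so the genes did not shift together in 1 direction. Scaling all libraries to the same total moved the median of all genes to 0.134 and the share of higher genes among those called from 49.0% to 64.2%, and relative to that median no direction of a called gene changed.

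**Figure D2:**
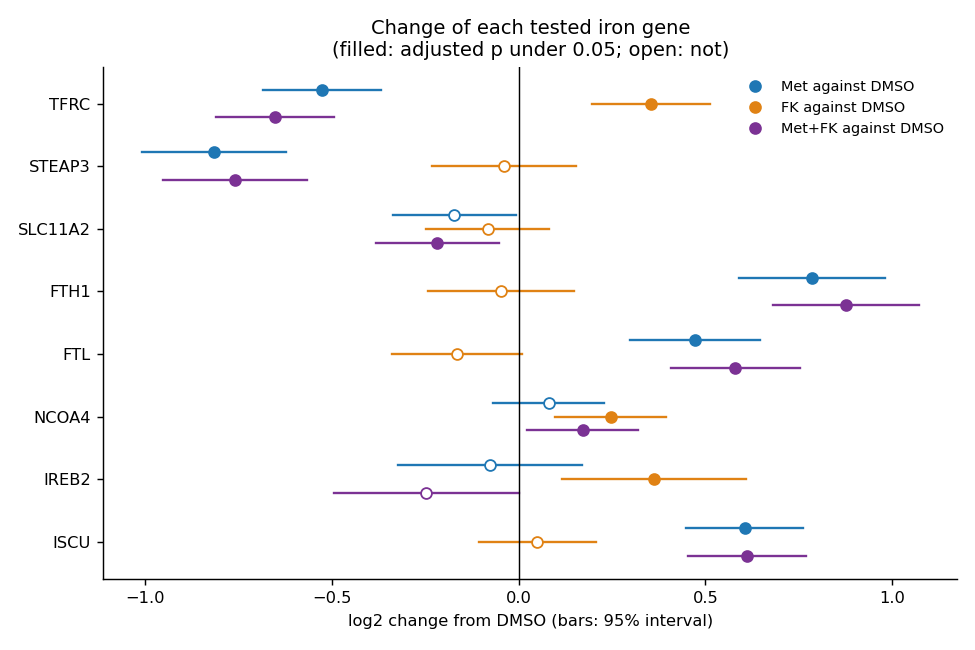
The log2 change from DMSO (x axis) of the 8 tested genes with metformin (blue), FK866 (orange) and both (purple), as points with 95% intervals from limma-trend, filled where the adjusted p was under 0.05. TFRC and STEAP3 lie left of 0 and FTH1, FTL and ISCU right of 0 with metformin and with both compounds, whereas with FK866 alone TFRC lies at 0.35 and STEAP3, FTH1 and ISCU lie within 0.05 of 0.

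FK866 alone left most of these messengers near their level in DMSO, and the 3 that passed the test were higher. TFRC had 18260, 19711 and 18440 normalized counts in the FK libraries, above every DMSO library, and rose by 0.35 ± 0.0741 on the log2 scale (adjusted p = 0.0153), in the direction opposite to its change with metformin. NCOA4 had 9189, 9334 and 9176 normalized counts with FK866, also above every DMSO library, and rose by 0.25 ± 0.0696 (adjusted p = 0.0306). IREB2 had 1669, 2132 and 1793 normalized counts with FK866. Its lowest FK library lay below its highest DMSO library, and the rise was 0.36 ± 0.116 (adjusted p = 0.0417).

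The ferritin chains did not pass. FTH1 had 63494, 53561 and 53835 normalized counts with FK866, within the range of the DMSO libraries, a difference of -0.047 (95% interval -0.24 to 0.15, adjusted p = 0.718). FTL had 18493, 15215 and 15499, a difference of -0.17 (adjusted p = 0.134). Blocking on the replicate number, which the DMSO and FK libraries share in their values, the FTL difference passed (adjusted p = 0.046), as it did without FK replicate 1 (-0.26, adjusted p = 0.0224). STEAP3 (-0.039, adjusted p = 0.759), SLC11A2 (-0.082, adjusted p = 0.429) and ISCU (0.050, adjusted p = 0.625) had overlapping ranges.

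These counts were 3 of 8 genes higher beside 11.3% of all genes, and 0 of 8 lower beside 9.84%. By limma-trend, edgeR and DESeq2 no gene was lower at an unadjusted p under 0.05 either. With the fold change over 1.5 as well 0 of 8 passed, against 3.49% of all genes. The FK and DMSO ranges did not overlap for 2 of the 8 genes, beside 38.8% of all genes.

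The values of the libraries depended to different degrees on the GC content of the transcript. The slope lay between 0.0429 and 0.196 log2 units per 10 points of GC percent in the DMSO libraries. In the FK libraries it lay between -0.245 and 0.0027, with no overlap. What made the slopes differ was not tested. The 3 genes that rose with FK866 have GC contents below the median of 48.5% over the tested genes, 40.9% for TFRC, 42.7% for NCOA4 and 38.2% for IREB2. After a correction that removed each library's trend on GC content and transcript length, the change with FK866 was 0.091 for TFRC (adjusted p = 0.284), 0.085 for NCOA4 (adjusted p = 0.289) and -0.0046 for IREB2 (adjusted p = 0.974), so that none of the 3 calls was left. FTL (GC content 56.0%) then differed by 0.062 (adjusted p = 0.55). SLC11A2, at 43.1%, passed after the correction, with -0.25 (adjusted p = 0.0451). The calls were also lost when single libraries were left out. Without DMSO replicate 1, DMSO replicate 3 or FK replicate 2, none of the 3 passed, and without FK replicate 3 TFRC alone did. Over all genes, 1738 higher and 1513 lower became 107 and 26, 261 and 119, 175 and 61, and 1331 and 798 in these 4 fits. With any 1 library left out the change was 0.3205 to 0.3786 for TFRC, 0.1851 to 0.2984 for NCOA4 and 0.2615 to 0.4742 for IREB2. The changes of TFRC, STEAP3, FTH1, FTL and ISCU with metformin kept their call after the same correction, with values of -0.75, -0.66, 0.87, 0.66 and 0.65. The corrected difference of IREB2 with metformin was -0.38 and passed (adjusted p = 3.84e-05), as did that of SLC11A2, at -0.32 (adjusted p = 0.00121).

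**Figure D3:**
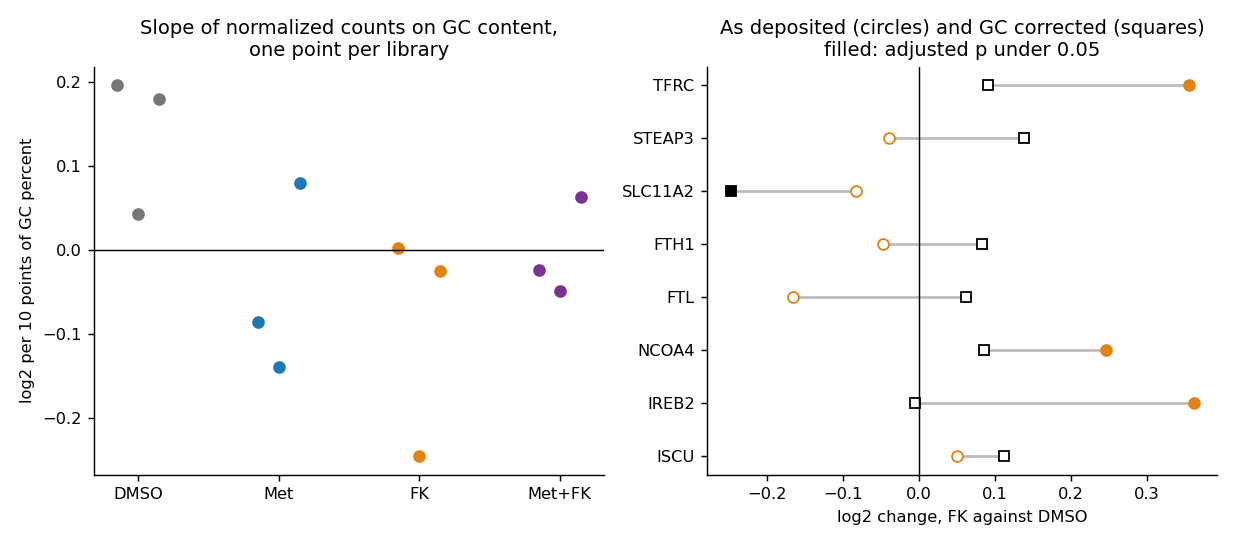
Left, the slope of each library's normalized counts on GC content, in log2 units per 10 points of GC percent, with 1 point per library. Right, the log2 change of FK against DMSO of the 8 tested genes as deposited (circles) and after the correction for GC content and length (squares), filled where the adjusted p was under 0.05. The squares of TFRC, NCOA4 and IREB2 lie at 0.091, 0.085 and -0.0046.

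With both compounds, the 5 genes that changed with metformin changed in the same direction. TFRC had 9463, 9705 and 8910 normalized counts in the Met+FK libraries, a log2 change of -0.65 ± 0.0741 from DMSO (adjusted p = 4.83e-06). STEAP3, at 7647, 7695 and 8234, fell by 0.76 ± 0.0902 (adjusted p = 7.25e-06). FTH1, at 113459, 104988 and 104650, rose by 0.88 ± 0.0917, or 1.83-fold (adjusted p = 2.15e-06). Every Met+FK library lay above every DMSO library. FTL had 27735, 26593 and 27928 normalized counts and rose by 0.58 ± 0.0815 (adjusted p = 3.52e-05). ISCU, at 3743, 3927 and 3496, rose by 0.61 ± 0.0736 (adjusted p = 8.31e-06).

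Smaller differences from DMSO passed narrowly. SLC11A2 had 1306, 1222 and 1179 normalized counts and fell by 0.22 ± 0.0772 (adjusted p = 0.0278), and NCOA4 had 8615, 8925 and 8767 and rose by 0.17 ± 0.0696 (adjusted p = 0.0496). Without DMSO replicate 1 or 3 neither passed (SLC11A2 adjusted p = 0.0756 and 0.0953, NCOA4 0.225 and 0.0836), nor did they without Met+FK replicate 2 or 3 (SLC11A2 0.0785 and 0.0956, NCOA4 0.134 and 0.0932), and NCOA4 also failed without Met+FK replicate 1 (0.0821). NCOA4 fell short with DESeq2 (adjusted p = 0.0552), TMM scaling (0.065), no gene filter (0.0924) and only the libraries compared (0.0584), and after the GC correction its difference was 0.060 (adjusted p = 0.305). SLC11A2 fell short with edgeR (adjusted p = 0.0558) and when libraries were scaled to the same total (-0.14, adjusted p = 0.149), and after the GC correction it passed with -0.34 (adjusted p = 6.70e-04). IREB2, at 1166, 1225 and 1258 normalized counts, lay below every DMSO library, but its difference of -0.25 did not pass (adjusted p = 0.0864). It passed after the GC correction, at -0.49 (adjusted p = 1.78e-06, and 1.65e-07 with the replicate block), and also with the block alone (adjusted p = 0.0227), with only the libraries compared (0.0417) and without DMSO replicate 1 (-0.33, adjusted p = 0.0425). In all, 4 of 8 genes were higher and 3 lower, each beside 26.1% of all genes. With the fold change over 1.5 these were TFRC, STEAP3, FTH1 and ISCU, 4 of 8 beside 25.1%. The Met+FK and DMSO ranges did not overlap for 8 of the 8 genes, beside 60.9% of all genes.

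Adding FK866 to metformin changed none of the 8 genes by the test. In Met+FK against Met, 0 genes were higher and 0 lower, beside 0.0911% and 0.0065% of all genes, and with limma-trend, edgeR and DESeq2 none reached an unadjusted p under 0.05. The differences were -0.12 for TFRC (95% interval -0.28 to 0.034), 0.055 for STEAP3 (-0.14 to 0.25), -0.045 for SLC11A2 (-0.21 to 0.12), 0.091 for FTH1 (-0.10 to 0.29), 0.11 for FTL (-0.065 to 0.28), 0.092 for NCOA4 (-0.057 to 0.24), -0.17 for IREB2 (-0.42 to 0.077) and 0.0062 for ISCU (-0.15 to 0.16). All intervals thus lay between -0.42 and 0.29, and with 3 libraries per treatment a difference within a gene's interval was not excluded. FTL and NCOA4 were higher in every Met+FK library than in every Met library, without passing (adjusted p = 0.853 and 0.856). These 2 of 8 genes without overlap stood beside 13.4% of all genes.

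Adding metformin to FK866, in contrast, changed 6 of the 8 genes. Against FK, TFRC in the Met+FK libraries fell by 1.01 ± 0.0741 on the log2 scale, to 0.498 times its level (adjusted p = 9.76e-08), STEAP3 fell by 0.72 ± 0.0902 (adjusted p = 1.62e-05) and IREB2 fell by 0.61 ± 0.116 (adjusted p = 6.64e-04). FTH1 rose 1.90-fold (log2 0.92 ± 0.0917, adjusted p = 1.78e-06), FTL 1.68-fold (0.75 ± 0.0815, adjusted p = 4.31e-06) and ISCU 1.48-fold (0.56 ± 0.0736, adjusted p = 2.55e-05). The ranges of these 6 genes did not overlap, nor did those of NCOA4, which did not pass (adjusted p = 0.416). These 7 of 8 genes without overlap stood beside 50.9% of all genes. The 3 genes higher stood beside 20.5% of all genes, the 3 lower beside 21.7%, and the 5 with a fold change over 1.5 (TFRC, STEAP3, FTH1, FTL and IREB2) beside 18.6%.

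Whether FK866 acted differently with and without metformin was tested as the interaction, the log2 change from Met to Met+FK minus that from DMSO to FK. It was -0.48 ± 0.105 for TFRC (adjusted p = 0.0976), -0.53 ± 0.164 for IREB2 (adjusted p = 0.11) and 0.27 ± 0.115 for FTL (adjusted p = 0.134). No member passed by limma-trend, beside 0.0065% of all genes with a positive and 0.052% with a negative interaction, and these 3 had an unadjusted p under 0.05. By edgeR 0 passed as well, and by DESeq2 TFRC (adjusted p = 0.00753) and IREB2 (adjusted p = 0.046) did. Over all 15376 genes, DESeq2 called 263 positive and 432 negative and the replicate block 2380 and 2534. By limma-trend 4695 of them had an unadjusted p under 0.05. Blocking on the replicate number, TFRC (adjusted p = 0.00423), IREB2 (adjusted p = 0.00966) and FTL (adjusted p = 0.0329) passed, and without FK replicate 1 they passed without the block (adjusted p = 0.0391, 0.0442 and 0.0437). After the correction for GC content and length the values were -0.17 for TFRC, -0.11 for IREB2 and 0.031 for FTL, and none passed, with the block (adjusted p = 0.0949, 0.439 and 0.822) or without it. The interaction and the change with FK866 share the DMSO and FK libraries, whose GC slopes differed. The correction removes any difference between libraries that follows GC content, whatever its source, and the source was not tested.

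Ratios within a library do not depend on its size factor and set uptake beside storage. The ratio of TFRC to FTH1 normalized counts was 0.213, 0.265 and 0.279 in the DMSO libraries. It was 0.102, 0.107 and 0.0948 in the Met libraries and 0.0834, 0.0924 and 0.0851 in the Met+FK libraries, all below every DMSO library. In the FK libraries it was 0.288, 0.368 and 0.343, all above. The ratios carry no GC correction, after which TFRC (0.091) and FTH1 (0.083) differed from DMSO by nearly the same amount with FK866. The ratio of FTH1 to FTL was between 3.12 and 3.35 with DMSO, between 3.43 and 3.52 with FK866, between 3.74 and 4.22 with metformin and between 3.75 and 4.09 with both. Every library with metformin had more FTH1 per FTL than every library without it. These ratios are descriptions, with no test, and they are not per length.

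**Figure D4:**
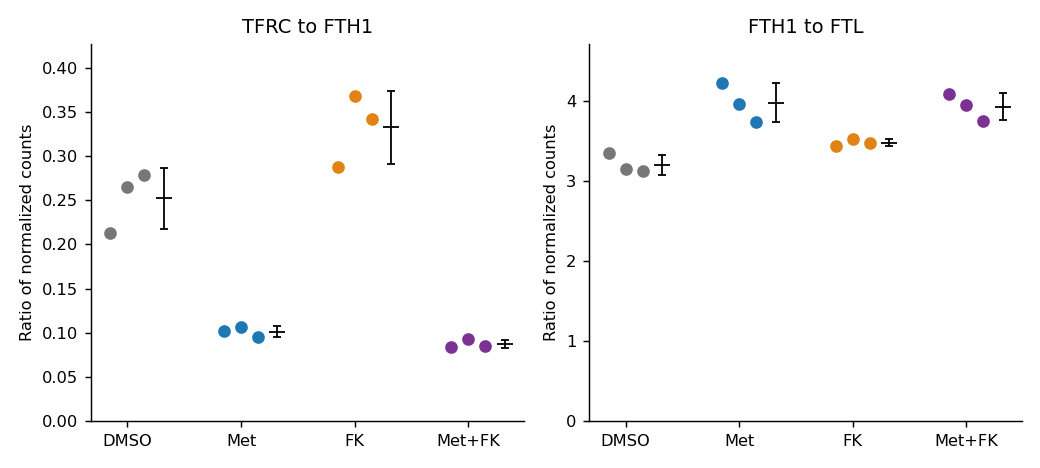
The ratio of TFRC to FTH1 (left) and of FTH1 to FTL (right) normalized counts in each library (points), with the mean and SD of 3 libraries (black). The TFRC to FTH1 ratio lies between 0.0834 and 0.107 in the 6 libraries with metformin and between 0.213 and 0.368 in the 6 without.

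To place the 9 genes in their pathways, 96 further genes in 7 lists were examined, of which 86 were tested. With metformin 24 of the 86 were higher and 26 lower, beside 24.9% and 25.9% of all genes. With FK866 these were 11 and 14, beside 11.3% and 9.84%, and with both 24 and 22, beside 26.1% in each direction. Blocking on the replicate number, 21 were higher and 28 lower with FK866, beside 3586 and 3268 of all 15376 genes. After the GC correction these were 9 and 3, beside 821 and 619 of 15324. Scaled to the same total, 30 were higher and 17 lower with metformin, beside 5241 and 2926 of 15376. With both compounds these were 27 and 17, beside 4875 and 3298. Among other genes of iron transport, 13 of 18 were tested, and 5 were higher and 4 lower with metformin (3 higher and 3 lower with both compounds). The lower genes with metformin were 1 when scaled to the same total, 2 after the GC correction and 6 with the replicate block. CYBRD1, a ferrireductase, rose by 0.56 ± 0.107 on the log2 scale (0.34 after the GC correction, adjusted p = 9.54e-04) and the metalloreductase STEAP2 by 0.53 ± 0.162. After the GC correction STEAP2 stood at 0.19 and no longer passed (adjusted p = 0.0706), nor did it without DMSO replicate 1 or Met replicate 2 (adjusted p = 0.0768 and 0.0712). HFE, a partner of the transferrin receptor, fell by 0.41 ± 0.0924 with metformin and by 0.52 with both compounds. MCOLN1, a lysosomal channel, fell by 0.34 with metformin, a call lost after the GC correction (adjusted p = 0.0688), when scaled to the same total (adjusted p = 0.0867) and without DMSO replicate 1 or Met replicate 2 (adjusted p = 0.0888 and 0.0901). The zinc and iron importer SLC39A14 rose by 0.48 ± 0.074 with both compounds. The mitochondrial iron importer SLC25A37 rose by 0.22 ± 0.0667 with both, which failed without Met+FK replicate 1 (adjusted p = 0.0723). With metformin alone SLC39A14 had 11372 to 13014 normalized counts, against 8528 to 9781 with DMSO. SLC25A37 then had 4150 to 4300, against 3242 to 3443. In Met+FK against Met, 0 of the 13 genes passed by limma-trend. SLC39A8, related to SLC39A14, fell by 0.30 ± 0.104 with both. This call was lost when scaled to the same total (adjusted p = 0.0989). It was also lost without DMSO replicate 2 or any 1 of the Met+FK libraries (adjusted p = 0.0528 to 0.137). With metformin alone SLC39A8 had 613 to 653 normalized counts, against 694 to 903 with DMSO.

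In the list of iron sensing and ferritin turnover 9 of 13 genes were tested, and 3 were higher and 1 lower with metformin and likewise with both compounds. Over all genes 24.9% were higher and 25.9% lower with metformin, and 26.1% in each direction with both. With the GC correction, 3 were lower with metformin and 2 with both, beside 4499 and 4639 of 15324 genes. BMP6, the growth factor that induces hepcidin in the liver, rose by 1.02 ± 0.105 with metformin and by 1.08 with both. TAX1BP1, an autophagy receptor that takes part in ferritin turnover, rose by 0.91 ± 0.179 and by 1.02. ACO1, the other iron regulatory protein and cytosolic aconitase, had 2210, 2130 and 2074 normalized counts with DMSO and 1662, 1732 and 1674 with metformin, and fell by 0.34 ± 0.0718 (-0.22 when scaled to the same total). With both it fell by 0.28 (-0.43 after the GC correction). Of 5 further messengers with described IREs, 4 were tested. EPAS1, the hypoxia factor HIF-2α, rose by 0.59 ± 0.0846 with metformin and by 0.54 with both, and CDC42BPA rose by 0.91 ± 0.132 and by 0.79.

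Beside ISCU stand 19 other genes of mitochondrial assembly, all tested. With metformin 1 was higher, beside 24.9% of all genes, and 6 were lower, beside 25.9%, and with both 3 were higher and 5 lower, each beside 26.1%. Their medians were -0.122 with metformin and -0.0884 with both. With FK866 1 was higher, beside 11.3% of all genes, and 6 were lower, beside 9.84%, with a median of -0.0878. By edgeR 3 were lower with FK866, beside 1062 of 15376 genes. After the GC correction 0 were higher and 2 lower with FK866, beside 821 and 619 of 15324. Scaled to the same total, 4 were higher and 4 lower with metformin, beside 5241 and 2926 of 15376 genes. With both these were 3 and 4, beside 4875 and 3298. After the GC correction they were 2 and 7 with metformin, beside 4220 and 4499 of 15324 genes. With both they were then 5 and 7, beside 4617 and 4639. HSPA9, the mitochondrial chaperone that acts on ISCU, rose by 0.72 ± 0.0657 with metformin (adjusted p = 7.29e-07) and by 0.81 with both. GLRX5, which carries the finished cluster, fell by 0.56 ± 0.0803 and by 0.56, and NDUFAB1, the acyl carrier protein of the cysteine desulfurase complex and of complex I, fell by 0.55 ± 0.0838 and by 0.57. IBA57 rose by 0.32 ± 0.118 with both compounds, a call lost without DMSO replicate 1 or 2 or any 1 of the Met+FK libraries (adjusted p = 0.0584 to 0.123). Of the 11 cytosolic assembly genes 7 were lower with metformin, 4 with FK866 and 6 with both, and 0 were higher in these comparisons, with limma-trend, edgeR and DESeq2 and also at an unadjusted p under 0.05. Over all genes 25.9% were lower with metformin, 9.84% with FK866 and 26.1% with both, and 24.9%, 11.3% and 26.1% were higher. NDOR1 fell by 0.60 ± 0.118 and CIAPIN1, its partner in electron transfer, by 0.56 ± 0.0865 with metformin, and NDOR1 fell by 0.54 and CIAO2A, a targeting factor, by 0.50 with both. With FK866 6 were lower with the replicate block, beside 3268 of all 15376 genes. After the GC correction none of the 4 calls was left, beside 619 lower of 15324 genes.

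In the list of heme synthesis, export and breakdown, with 18 genes tested, 5 were higher and 4 lower with metformin and likewise with both. Over all genes 24.9% were higher and 25.9% lower with metformin, and 26.1% in each direction with both. Scaled to the same total, 8 were higher and 2 lower with metformin, beside 5241 and 2926 of 15376 genes. With both these were 7 and 2, beside 4875 and 3298. HMOX1, heme oxygenase, which frees iron from heme, had 4032, 2292 and 1954 normalized counts with DMSO and 18207, 12525 and 11854 with metformin, a rise of 2.41 ± 0.254 on the log2 scale (adjusted p = 3.07e-06), and it rose by 2.71 with both. SLC48A1, which moves heme out of lysosomes, rose by 0.60 ± 0.0863 and by 0.66. The folate and heme transporter SLC46A1 fell by 0.41 ± 0.101 with metformin. The heme exporter FLVCR1 fell by 0.34 ± 0.111 with both. In Met+FK against Met, 0 of the 18 genes passed by limma-trend. The call of FLVCR1 with both compounds did not hold without Met+FK replicate 3 (adjusted p = 0.0713) or when scaled to the same total (adjusted p = 0.0677).

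The ferritin genes and HMOX1 are also known targets of the oxidative stress factor NRF2. Of 12 NRF2 targets outside iron handling, 8 were higher and 3 lower with metformin, beside 24.9% and 25.9% of all genes. With FK866 6 were higher and 0 lower, beside 11.3% and 9.84%. By edgeR and DESeq2 0 were lower as well, and by limma-trend 3 were lower at an unadjusted p under 0.05. With both compounds 8 were higher and 3 lower, beside 26.1% in each direction. With the replicate block, 8 were higher and 3 lower with FK866, beside 3586 and 3268 of 15376 genes. The cystine importer SLC7A11 rose by 1.93 ± 0.182 with metformin and by 1.85 with both, GCLC, the catalytic subunit of glutathione synthesis, rose by 0.80 ± 0.113 with metformin, and OSGIN1 rose by 1.31 ± 0.113 with both. TKT and TALDO1, of the pentose phosphate pathway, fell by 0.48 and 0.35 with metformin and by 0.31 and 0.29 with both, where TALDO1 failed without Met+FK replicate 2 (adjusted p = 0.0534). GC corrected, they stood at -0.29 and -0.20 with metformin and at -0.17 and -0.15 with both, and passed. In Met+FK against Met, 0 of the 86 genes passed by limma-trend or edgeR and 1 by DESeq2, which called 52 higher and 22 lower over all 15376 genes. By limma-trend 5 had an unadjusted p under 0.05, beside 1051 of all genes. With the replicate block 2 of the 86 were higher there, beside 72 of all genes. They were the NRF2 targets OSGIN1 (adjusted p = 0.00187) and SRXN1 (adjusted p = 0.0171). SRXN1 was named after its values were seen, and the lists were written with earlier results of these data known. The paper names OSGIN1, from the same data, among the p53 pathway genes that it reports as reactivated by both compounds. After the GC correction OSGIN1 was higher (adjusted p = 0.0128), beside 91 of 15324 genes. For the interaction, 0 of the 86 passed by limma-trend or edgeR and 7 by DESeq2, which called 263 positive and 432 negative over all 15376 genes. By limma-trend 35 had an unadjusted p under 0.05, beside 4695 of all genes. With the replicate block 25 were positive and 12 negative, beside 2380 and 2534 of all genes. After the GC correction 0 were positive and 1 was negative, beside 27 and 54 of 15324.

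**Figure D5:**
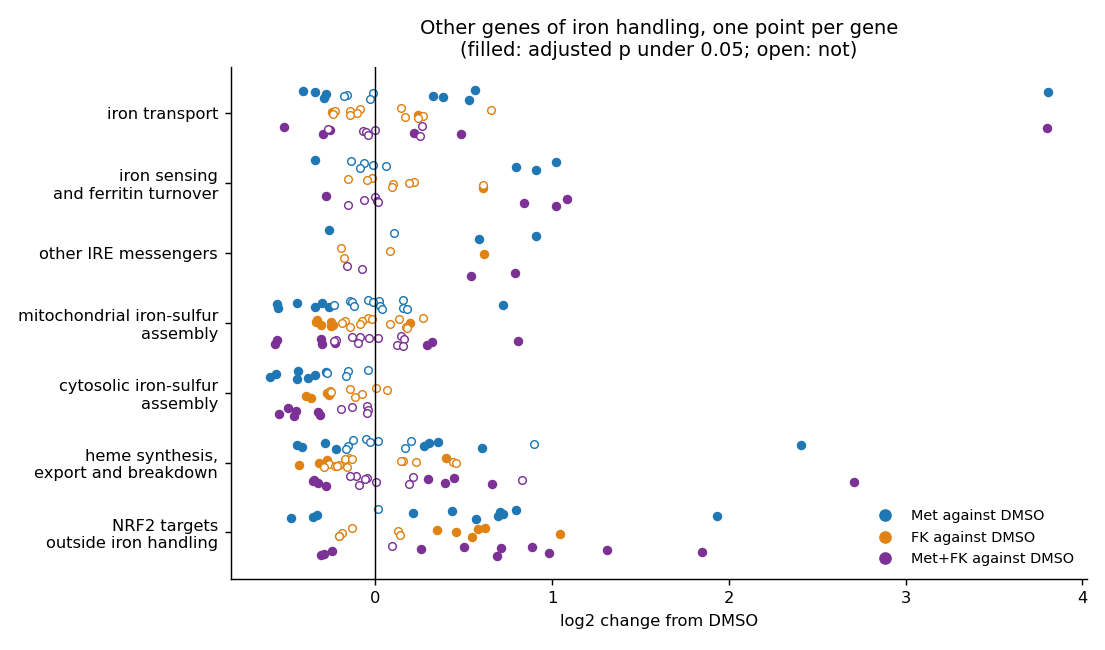
The log2 change from DMSO (x axis) of 86 tested genes in 7 lists around the 9 iron genes, with 1 point per gene for metformin (blue), FK866 (orange) and both (purple), filled where the adjusted p was under 0.05. HMOX1 stands at 2.41 and 2.71 in the heme list, and the filled points of the cytosolic assembly genes all lie left of 0.

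For the 4 genes with a fold change over 1.5 against DMSO, the tested genes with a mean of at least 100 whose 3 log2 changes from DMSO lay closest were sought, by the root mean square difference over the 3 treatments among 11520 genes. For FTH1 they were CYSTM1 (0.010) and BEST1 (0.0261). BEST1 overlaps FTH1 on the opposite strand over 5798 bases and had a mean of 359 normalized counts against 81199 for FTH1, and with the strand setting of the counting not given in the sources used here its reads cannot be told apart from those of FTH1. For TFRC they were BLM (0.0376) and DIPK1A (0.0387), for STEAP3 AL441992.1 (0.0188) and SNRPG (0.0335), and for ISCU ZNF487 (0.0094) and SLC24A1 (0.0287). STEAP3 overlaps the antisense gene STEAP3-AS1, which had a mean of 23.0 normalized counts against 10442.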

How the data were processed

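The members were fixed by name, and the pathway and marker lists, tests and alternatives were chosen with earlier results of these data known. The methods name cutadapt for trimming, STAR for alignment to hg38, featureCounts for read pairs and DESeq2 for normalization by the authors. The annotation and strand setting are not given in the sources used here. The deposited signal is counts divided by a size factor per library (0.867 to 1.21), without negative values, for 36601 genes. Columns were matched to libraries by name. Read pairs were recovered whole within 0.01, for 30667735 to 41052203 per library. Sampling noise did not account for the differences between replicates (chi-square divided by its degrees of freedom, 5.69 to 51.5), so each library counted once.

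Treatments were compared with limma-trend (limma 3.58.1, R 4.3.3) on log2(normalized count + 1), which understates changes of low genes, fitted to the 12 libraries together. It covered 15376 genes whose mean was 10 or more, with Benjamini-Hochberg adjustment over all of them. It was tested on simulated data. Alternatives were pseudocounts of 0.1 and 10, other filters and scalings, only the libraries compared, edgeR 4.0.16 and DESeq2 1.42.0 on read pairs, the replicate block, a loess correction (span 0.3) for GC content and transcript length, and each library left out. Same-numbered DMSO and FK libraries had correlated deviations from their group means (0.252, 0.420 and 0.219), as had Met with Met+FK libraries (0.171, 0.200 and 0.226). All exceed 0.1, so replicate numbers were taken as pairs there, from the values alone. After the GC correction these were 0.136, 0.171 and 0.131, and 0.159, 0.0964 and 0.0738, so that Met with Met+FK then fell short. Uncorrected, DMSO with Met libraries had 0.0129, 0.328 and 0.248, and DMSO with Met+FK libraries 0.051, 0.159 and 0.0186. Met with FK libraries had 0.0233, 0.403 and 0.3, and FK with Met+FK libraries 0.0461, 0.235 and 0.142. The block spanned all 4 treatments, also where a value was under 0.1. Differently numbered libraries were not compared in this way. Named were all members, from each list the 2 largest changes per direction with metformin and with both compounds (mean of at least 100), and the 2 nearest genes by profile. Some genes that this rule names are not reported here. Positions are the deposited ones, counted from 1. For single genes only the spread between libraries gives the error.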

Additional observations from a re-analysis of the deposited data

How the results depend on the processing

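Of 48 member comparisons 21 passed, and 16 of these passed under every alternative except the added fold change, namely the 5 of metformin, the 5 of Met+FK against DMSO other than SLC11A2 and NCOA4, and the 6 of Met+FK against FK. The replicate block (SLC11A2 with metformin, adjusted p = 0.0255, and IREB2 in Met+FK against DMSO, 0.0227, beside the FTL and interaction values of the report) changed no other call. The cause of the changes below was not tested. With a fold change over 1.5 as well, 1 gene was lower with metformin, 0 were higher with FK866 and 2 were higher with both. After the GC correction, with or without the block, 4 genes were lower with metformin and 1 was lower with FK866, and 0 were higher with FK866 (1 with the block). With FK866, 1 gene was higher with no gene filter and 0 with only the libraries compared, and with the replicate block 1 was lower. For the interaction, the block gave 1 positive and 2 negative genes and DESeq2 2 negative ones. Leaving out 1 library gave 0 to 3 genes higher and 0 to 1 lower with FK866, and 0 to 1 positive and 0 to 2 negative interactions. Signs turned only among differences that did not pass, apart from IREB2 with FK866. After the GC correction, with or without the block, these were NCOA4 with metformin (-0.058), STEAP3 (0.138), FTH1 (0.083), FTL (0.062) and IREB2 (-0.0046) with FK866, and the interactions of STEAP3 (-0.125) and NCOA4 (0.033). Scaled to the same total they were IREB2 with metformin (0.045), ISCU in Met+FK against Met (-0.033, and -0.013 with TMM) and the SLC11A2 interaction (-0.025). With 1 library left out, ranges crossed 0 for IREB2 with metformin (-0.164 to 0.035), STEAP3 (-0.121 to 0.036) and FTH1 (-0.130 to 0.054) with FK866, ISCU in Met+FK against Met (-0.035 to 0.051) and the interactions of SLC11A2 (-0.0035 to 0.082) and ISCU (-0.084 to 0.0010). Over all genes, FK against DMSO gave 1738 higher and 1513 lower, 821 and 619 after the GC correction and 3586 and 3268 with the block, and the interaction gave 1 positive and 8 negative, 27 and 54, and 2380 and 2534. STEAP3 with FK866 passed after the GC correction with the block (adjusted p = 0.0377). Depth limits SLC40A1 alone among the members, at 2 to 14 read pairs per library.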
